A study of Mus musculus with 20 samples.

Results

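The T-cell receptor beta locus (Tcrb) was described in double-positive thymocytes through the peaks of 16 deposited peak lists. Members were all peaks that lay inside mm9 chr6:40830000-41520000, and they numbered 325 of the 270514 peaks in all lists. Of these, 207 lay in the end that holds the D, J and constant segments and the enhancer, from position 41470000 to 41520000, and 118 lay in the variable part before it. The end took 50 kb, or 7.25% of the 690 kb, and the variable part took 640 kb. The locus and its boundary were selected on position, but with the peak counts and areas of these same lists in view. Counts, densities and ranks are therefore given as descriptions and carry no test.

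The cells were CD4+/CD8+ double-positive T cells from the thymus of C57BL/6 mice, for which the labels of the FAIRE and RNA samples give a wild-type background and an age of 5 to 6 weeks. Of the 20 samples, 16 had 1 peak list each: total RNA polymerase II (Pol II), its forms phosphorylated on serine 5 (Ser5P) and serine 2 (Ser2P) of its repeated C-terminal tail, the histone marks H3K4me3, H3K4me1 and H3K36me3, FAIRE, ETS1, CBP, TBP, and the general factors TFIIA, TFIIB, TFIIE, TFIIF, TFIIH and Taf1. All were made from this 1 cell stage, so the comparisons below run along the chromosome and between lists, not between conditions. The input and rabbit immunoglobulin controls and the 2 RNA samples, total and poly(A), were not analysed here. The labelled cell type was not checked against marker genes, because neither an expression file nor a gene annotation of mm9 was used here.

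Tcrb encodes the beta chain of the alpha-beta T-cell receptor and is assembled by V(D)J recombination, which joins a variable (Trbv) segment to a diversity (Trbd) and a joining (Trbj) segment. The joined exon is transcribed from the promoter of the chosen Trbv segment through a constant region (Trbc), under the enhancer E-beta, which lies between Trbc2 and Trbv31 and is known to bind ETS and RUNX factors. Germline promoters also lie beside the Trbd segments. Double-positive cells have passed beta selection, so they carry rearranged Tcrb chromosomes that have lost the DNA between the joined segments. The lists give positions on the unrearranged reference, and copy number along the locus was not measured.

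In the gene table of the later assembly GRCm38.p6, used here for names and order alone, the locus held 35 Trbv entries, of which 13 were pseudogenes. Of these, 34 lay on the Trbv1 side of Trbd1, and Trbv31 lay by itself beyond Trbc2. By this order Trbv31 falls on the side of the D, J, constant and enhancer end. The boundary therefore does not part all Trbv segments from the rest. Trbv30 was followed by a group of other genes and pseudogenes, among them the trypsinogen genes Try4, Try5, Try10, Prss3, Prss1 and Prss2, then by Trbd1, the Trbj1 cluster, Trbc1, Trbd2, the Trbj2 cluster and Trbc2, with 14 Trbj entries in all. Other genes, among them Prss58, lay between Trbv1 and Trbv2. The variable part, set by position, therefore takes in more than Trbv segments, and its densities are averages over all of it. Peaks are given by position and were not assigned to single segments.

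Peaks of the transcription machinery were packed into the D, J, constant and enhancer end. The 3 Pol II lists together had 80 peaks there and 32 in the variable part, so the end held 71.4% of their 112 peaks (Wilson 95% interval 62.5 to 79.0). TBP and the 6 general factor lists together had 89 peaks in the end and 33 in the variable part, a share of 73.0% in the end (64.5 to 80.0). CBP, ETS1 and FAIRE had all of their 13 peaks in the end (77.2 to 100), as did H3K36me3 with its 6 (61.0 to 100). The end held 8 of 24 H3K4me3 peaks, or 33.3% (18.0 to 53.3), and 11 of 48 H3K4me1 peaks, or 22.9% (13.3 to 36.5). These intervals cover counting error only, and peaks that lie side by side are not independent counts. The H3K4me3 split depended on what was counted: by covered bases the end held 62.7%, and in the upper 50% of the list by area it held 5 peaks, against 2 in the variable part (71.4%). Every class thus stood above the 7.25% of the length that the end takes, but whether the end or the variable part held more H3K4me3 turned round with the measure.

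**Figure D1:**
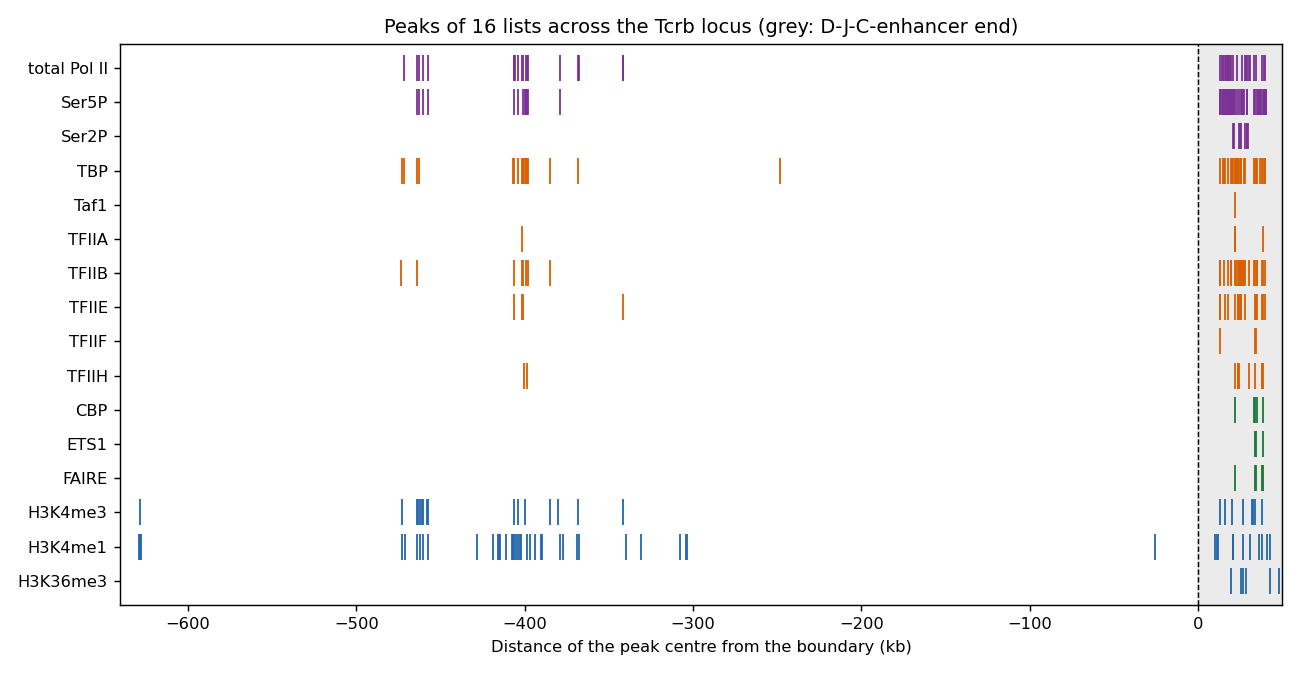
Peak centres of the 16 lists along the locus, by distance in kb from the boundary between the variable part and the D, J, constant and enhancer end (shaded, right of the dashed line). Each tick is 1 peak. The ticks of CBP, ETS1, FAIRE, Ser2P, Taf1, TFIIF and H3K36me3 all fall in the end, while those of Pol II, Ser5P, TBP, TFIIB and both H3K4 marks also fall in groups between -473 and -341 kb.

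Pol II, the enzyme that transcribes the locus, gave dense lists, Ser5P the densest of the 16 in the end. Total Pol II had 28 peaks in the end and 19 in the variable part, or 28.0 and 1.48 peaks per 50 kb, against 0.342 per 50 kb over all chromosomes. Of 52822 tiles of 50 kb that span the chromosomes, 0.0530% held 28 or more total Pol II peaks. Ser5P, the form found at initiation and early elongation, had 43 peaks in the end and 13 in the variable part (43.0 and 1.02 per 50 kb, against 0.202 over all chromosomes). No tile held more than 43 Ser5P peaks and 1 tile, or 0.00189%, held as many. Ser2P, the form of productive elongation, had 9 peaks in the end and 0 in the variable part, and 0.0473% of tiles held 9 or more. All 3 forms of Pol II thus had peaks in the end. Ser2P had 0.0343 peaks per 50 kb over all chromosomes, so its empty variable part says little by itself.

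Measured in bases, total Pol II peaks covered 38.5% of the end and 0.731% of the variable part, against 0.136% of all chromosomes. Ser5P peaks covered 26.2% of the end and 0.348% of the variable part, and Ser2P peaks covered 7.16% of the end. Total Pol II peaks were broader in the end, with a median width of 360 bp, against 200 bp in the variable part and 140 bp in the whole list. Ser5P peaks were not, with medians of 120 bp, 130 bp and 140 bp. By the medians, Ser5P peaks of the end were thus shorter than total Pol II peaks. Both lists mixed short and long peaks there, the widest being 2290 bp for Ser5P and 3790 bp for total Pol II.

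TBP, which nucleates the preinitiation complex, had 28 peaks in the end and 18 in the variable part, and 0.00379% of tiles held 28 or more. TFIIB, which bridges TBP and Pol II, had 27 peaks in the end and 8 in the variable part. No tile reached 27 TFIIB peaks, the highest count being 25. TFIIE, which recruits TFIIH, had 18 peaks in the end and 4 in the variable part (0.00379% of tiles held 18 or more). TFIIH, whose subunits open the promoter and phosphorylate serine 5, had 9 and 2 (0.00379% of tiles held 9 or more). The end was drawn round its cluster while tile starts were fixed and split it. With tiles shifted by 20 kb, so that the end was itself a tile, the shares were 0.00379% for TBP and TFIIB and 0.00757% for TFIIE and TFIIH, an alternative chosen after seeing the data. With a shift of 25 kb the highest of the 4 was 0.00947%, for TFIIH. Few tiles thus reached the counts of these 4 factors in the end, under each of the 3 tile starts.

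The remaining general factors were sparse. TFIIA, which stabilises TBP on DNA, had 3 peaks in the end and 1 in the variable part (0.178% of tiles held 3 or more). TFIIF, which escorts Pol II to the promoter, had 3 and 0 (0.0114%). Taf1, the largest subunit of TFIID, had 1 peak in the end and 0 in the variable part, and as many as 21.3% of tiles held at least 1. The Taf1 count was therefore ordinary for this list, which holds 13518 peaks. Per the names of the deposited files, the lists of TFIIB and Taf1 stem from a single replicate.

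CBP, a histone acetyltransferase that serves as coactivator at enhancers and promoters, had 5 peaks in the end and 0 in the variable part (0.0549% of tiles held 5 or more). ETS1, an ETS-family transcription factor needed for T-cell development, had 3 and 0 (0.140% of tiles held 3 or more). FAIRE, which recovers nucleosome-poor DNA without an antibody, had 5 and 0 (0.259% of tiles held 5 or more). These counts are small, and the CBP list also stems from 1 replicate. Over all chromosomes the lists had 0.121 peaks per 50 kb for CBP, 0.0447 for ETS1 and 0.212 for FAIRE, so an empty variable part of 640 kb says little by itself for these 3 targets.

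**Figure D2:**
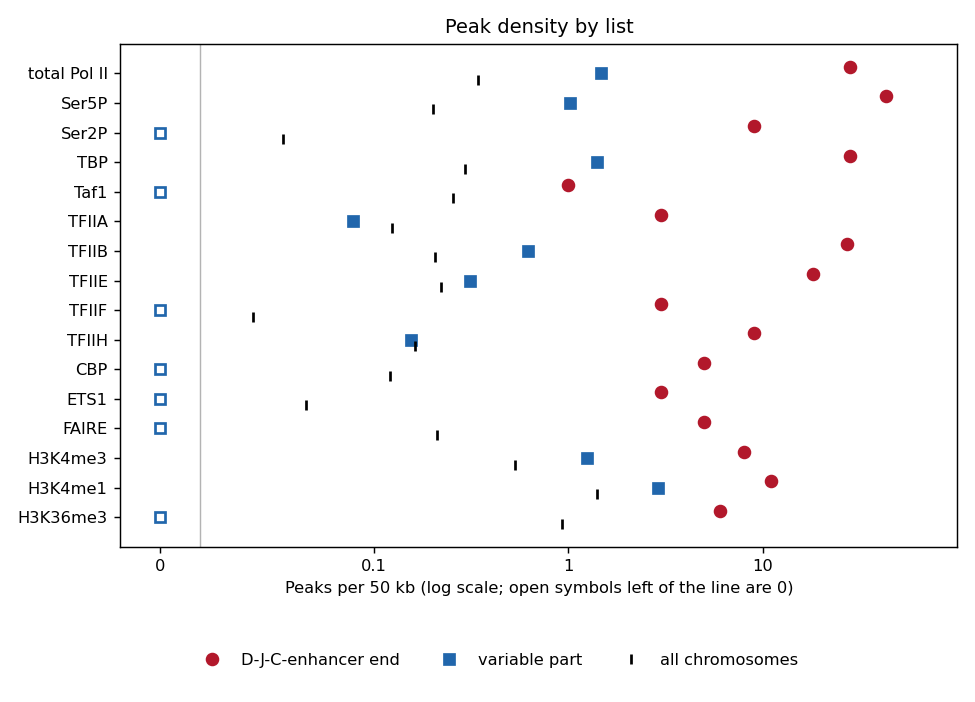
Peaks per 50 kb of each list (log scale) in the D, J, constant and enhancer end (circles), in the variable part (squares) and over all chromosomes (ticks), with open squares for 0. The circles lie right of the squares for all 16 lists, from 1.00 for Taf1 to 43.0 for Ser5P, and the variable part lies below the density over all chromosomes for TFIIA and, slightly, for TFIIH as well as for the lists with 0.

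The histone marks divided differently. H3K4me3, the usual mark of active promoters, had 8 peaks in the end and 16 in the variable part, and 0.388% of tiles held 8 or more. Its peaks in the end were broad, with a median of 2175 bp, against 660 bp in the variable part and 650 bp in the whole list. They covered 52.7% of the end and 2.45% of the variable part, against 0.871% of all chromosomes. H3K4me1, a mark of enhancers and promoter flanks, had 11 peaks in the end and 37 in the variable part (2.74% of tiles held 11 or more), and covered 34.9%, 3.77% and, over all chromosomes, 2.63%. H3K36me3, laid down along transcribed gene bodies, had 6 and 0 (6.81% of tiles held 6 or more), and covered 19.4% of the end. The variable part was thus empty of H3K36me3, a mark that covered 3.95% of all chromosomes, while its H3K4me1 peaks, at 2.89 per 50 kb, were denser than the 1.41 over all chromosomes. Only 16.6% of tiles held an H3K36me3 peak, so the absence of this mark says little by itself.

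Of the 16 lists, 13 had counts in the end that 1% of tiles or fewer reached. The exceptions were Taf1, H3K4me1 and H3K36me3. For each list most tiles held no peak at all, which makes this limit easy to pass. Among tiles with at least 1 H3K4me1 peak the number was 12, with H3K4me3 at 1.28%.

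Within the end, peaks of the 13 lists other than histone marks formed 4 islands, which are runs of peaks separated by at most 500 bp. The broadest, chr6:41483921-41500650, was 16730 bp long and held 112 peaks of 11 lists, with TFIIF and ETS1 missing. A short island before it, chr6:41482591-41483320, held 10 peaks of total Pol II, Ser5P, TBP, TFIIB, TFIIE and TFIIF. Beyond it lay chr6:41502971-41505400, of 2430 bp, with 29 peaks of 10 lists, and chr6:41506761-41510210, of 3450 bp, with 31 peaks of 10 lists. All 4 overlapped H3K4me3 peaks. Total Pol II, TBP, TFIIB and TFIIE spanned from the first island to the last, at 12.6 to 39.8 kb from the boundary for total Pol II. Ser2P stayed inside the long island, at 20.1 to 29.9 kb, and ETS1 lay in the last 2 islands, at 33.4 to 38.6 kb.

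**Figure D3:**
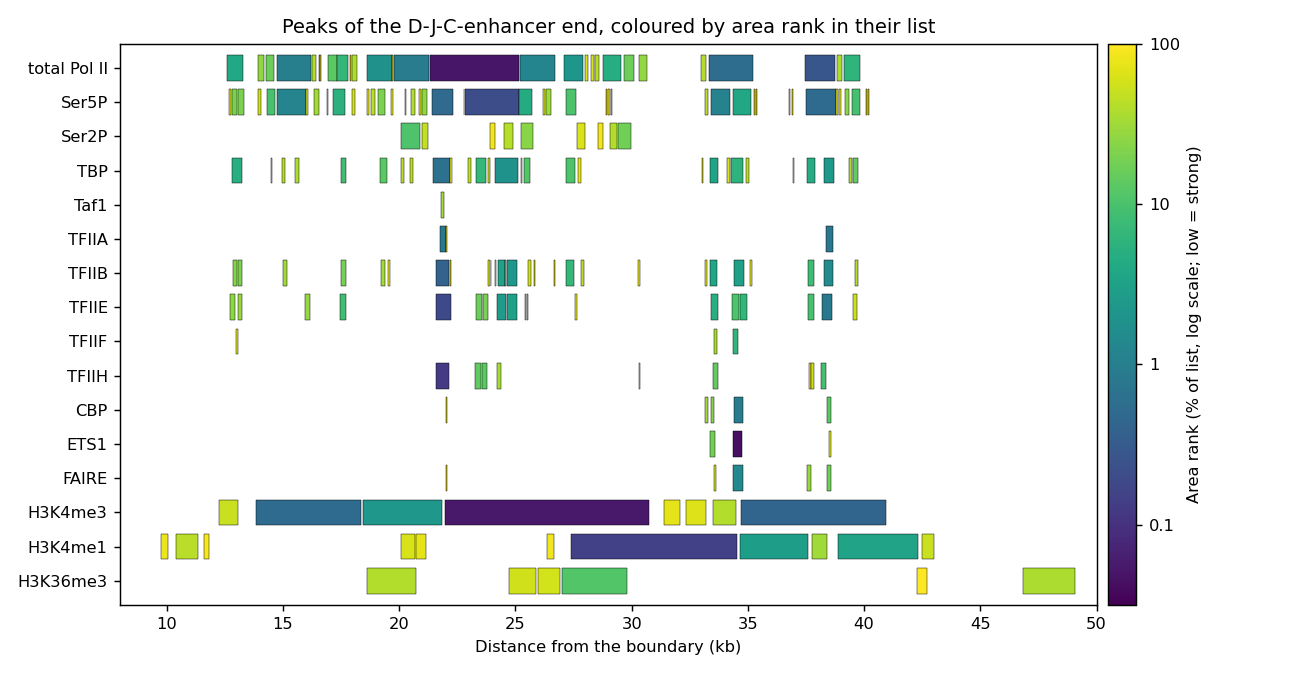
Peaks of the D, J, constant and enhancer end drawn to scale, with the distance in kb from the boundary on the x axis, 1 line per list, and colour for the area rank within the list in percent (log scale, dark for strong). The darkest boxes are a total Pol II peak and an H3K4me3 peak that start close to each other in the long island, with rank percentages of 0.0499 and 0.0535, and an ETS1 peak near 34 kb, with 0.0424.

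The area of a peak was read, from the names of the deposited files, as the authors' signal summed over it, and was used here only to rank peaks within their own list, rank 1 being the highest. By this measure 21 of the 207 peaks in the end, or 10.1%, and 0 of the 118 peaks in the variable part were in the upper 1% of their list, against 0.997% of all peaks. The 21 came from 11 lists. Area grows with width, and with area divided by width 7 peaks of the end and 0 of the variable part were in the upper 1%. Those 7 were 2 TFIIE peaks and 1 peak each of Ser5P, TFIIB, TFIIH, ETS1 and H3K4me1. The high area of the broad Pol II and H3K4me3 peaks thus went with their length.

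The widest total Pol II peak of the locus, chr6:41491341-41495130, was 3790 bp long and ranked 9 of 18037 by area (0.0499%). Per base of its width the peak ranked at 2.00%. Inside it lay the Ser5P peaks chr6:41491401-41492320, ranked 53 of 10644, and chr6:41492841-41495130, ranked 22. Near its start also lay the strongest peaks of the locus for TBP, at chr6:41491451-41492170 (rank 104 of 15651), for TFIIB, at chr6:41491591-41492150 (rank 42 of 10999), for TFIIE, at chr6:41491601-41492230 (rank 22 of 11678), and for TFIIH, at chr6:41491601-41492140 (rank 11 of 8618). TFIIA ranked 53 of 6588 there, at chr6:41491761-41492020. The 1 Taf1 peak of the locus, chr6:41491781-41491920, fell at the same place but ranked 4237 of 13518. TBP, TFIIA, TFIIB, TFIIE and TFIIH thus had peaks in the upper 1% of their lists side by side there, with a Taf1 peak of middling rank.

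That cluster lay over a short gap between H3K4me3 peaks and reached into the peaks on both sides. The gap chr6:41491831-41491950, of 120 bp, separated a 3380 bp H3K4me3 peak (rank 628 of 28013) from the 8810 bp peak chr6:41491951-41500760, the broadest of the locus, which ranked 15 by area (0.0535%) and at 2.48% by area per base. CBP and FAIRE each had 1 peak just beside the gap, of 40 bp, and both were weak: CBP ranked 4905 of 6372 and FAIRE 9878 of 11176. ETS1 had none there. The place with the strongest TFIIH, TFIIE, TFIIB and TBP peaks of the locus was thus poor in CBP and FAIRE area and had no ETS1 peak.

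Ser2P and H3K36me3 peaks lay on both sides of that place. The Ser2P peak of highest area, chr6:41490081-41490890, was 810 bp long and ranked 189 of 1811. Of the 9 Ser2P peaks, all 9 overlapped total Pol II (51.8% in the whole list) and 7 overlapped H3K36me3 (53.7%). Total Pol II peaks covered 19240 bp within their extent of 27.2 kb in the end, which held all 9. Overlap with total Pol II was therefore likely wherever a Ser2P peak lay there. H3K36me3 had its strongest peak of the locus at chr6:41496991-41499780, 2790 bp long and ranked 5544 of 49181 (11.3%). In the end 11 of 28 total Pol II peaks overlapped H3K36me3, against 0 of 19 in the variable part and 13.9% in the whole list. H3K4me3 and H3K36me3, which usually mark different ends of a gene, shared 7020 bp in the end and 0 bp in the variable part. Most of the H3K36me3 in the end thus lay inside H3K4me3 peaks, with 2660 bp outside them. H3K4me3 peaks covered 26340 bp within their extent of 28.7 kb in the end. Shared bases were therefore close to certain for any H3K36me3 peak inside that extent. The 2660 bp were the H3K36me3 peaks chr6:41512291-41512700 and chr6:41516841-41519090, both beyond that extent.

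The strongest peak of the whole ETS1 list lay in this locus. The peak chr6:41504341-41504730, 390 bp long, ranked 1 of 2359 by area (0.0424%) and at 0.0848% by area per base. At the same place lay the strongest peaks of the locus for CBP, at chr6:41504421-41504780 (rank 56 of 6372, 0.879%), for FAIRE, at chr6:41504361-41504810 (1.40%), and for TFIIF, at chr6:41504371-41504580 (rank 81 of 1262, 6.42%). Total Pol II covered it with a 1890 bp peak, chr6:41503311-41505200 (rank 100 of 18037). TFIIB (2.91%), Ser5P (3.90%), TBP (5.72%) and TFIIE (10.6% and 6.29%) also had peaks that overlapped the ETS1 peak. Ser2P, Taf1, TFIIA and TFIIH had no peak in the stretch chr6:41504411-41504610. The site with the highest ETS1, CBP, FAIRE and TFIIF areas of the locus thus lay in another island than the site with the highest TBP, TFIIB, TFIIE and TFIIH areas.

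The ETS1 peak lay across a narrow break in both H3K4 marks. H3K4me3 was interrupted at chr6:41504471-41504690, for 220 bp, and H3K4me1 at chr6:41504511-41504680, for 170 bp, and 9 of the 13 lists had a peak over each break. The H3K4me1 peak that ended there, chr6:41497401-41504510, was 7110 bp long and ranked 109 of 74607 (0.146%), and at 0.378% by area per base. The H3K4me3 peak that began there, chr6:41504691-41510940, was 6250 bp long and ranked 120 of 28013 (0.428%). Each mark also had a peak on the other side of its break. For H3K4me1 this was chr6:41504681-41507570, of 2890 bp (2.72%), on the far side. For H3K4me3 it was chr6:41503501-41504470, of 970 bp (39.8%), on the side of the boundary. The 2 marks thus both flanked the site on both sides. The higher-ranking H3K4me1 peak lay on the side of the boundary and the higher-ranking H3K4me3 peak on the far side.

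The other 2 ETS1 peaks were weaker. At chr6:41503381-41503570 ETS1 ranked 421 of 2359, beside a CBP peak of 130 bp (rank 1446 of 6372) and a FAIRE peak of 90 bp (rank 6413 of 11176). At chr6:41508471-41508560 it ranked 1548, with CBP at rank 807 and FAIRE at rank 1927. This last place, in the fourth island, also had a TFIIA peak, chr6:41508381-41508660, ranked 51 of 6588, a TFIIE peak, chr6:41508191-41508630, ranked 96 of 11678, a total Pol II peak, chr6:41507471-41508760, ranked 50 of 18037, and a Ser5P peak, chr6:41507501-41508790, ranked 55 of 10644. All 3 ETS1 peaks of the locus thus overlapped a CBP and a FAIRE peak, and this last one was the only one of them with TFIIA.

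The breaks in H3K4 marks were counted over the whole locus. Of the gaps of at most 500 bp between neighbouring H3K4me1 peaks, 3 of 7 in the end and 0 of 12 in the variable part overlapped a FAIRE peak, against 5.83% over all chromosomes. ETS1 overlapped 2 of 7 and 0 of 12 (1.41%), and CBP 2 of 7 and 0 of 12 (2.01%). TBP overlapped 3 of 7 and 2 of 12 (7.96%), and total Pol II 4 of 7 and 2 of 12 (7.75%). For H3K4me3 gaps FAIRE overlapped 1 of 5 and 0 of 5 (11.2%), ETS1 2 of 5 and 0 of 5 (1.02%), and CBP 2 of 5 and 0 of 5 (2.62%). TBP overlapped 3 of 5 H3K4me3 gaps in the end and 0 of 5 in the variable part (20.6%), and total Pol II 3 of 5 and 1 of 5 (11.1%). With 5 to 12 gaps in each part these counts stand for single sites, and the gaps of the end with FAIRE, ETS1 or CBP were at the places named above, except chr6:41507571-41507740, which had a FAIRE peak of 140 bp.

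**Figure D4:**
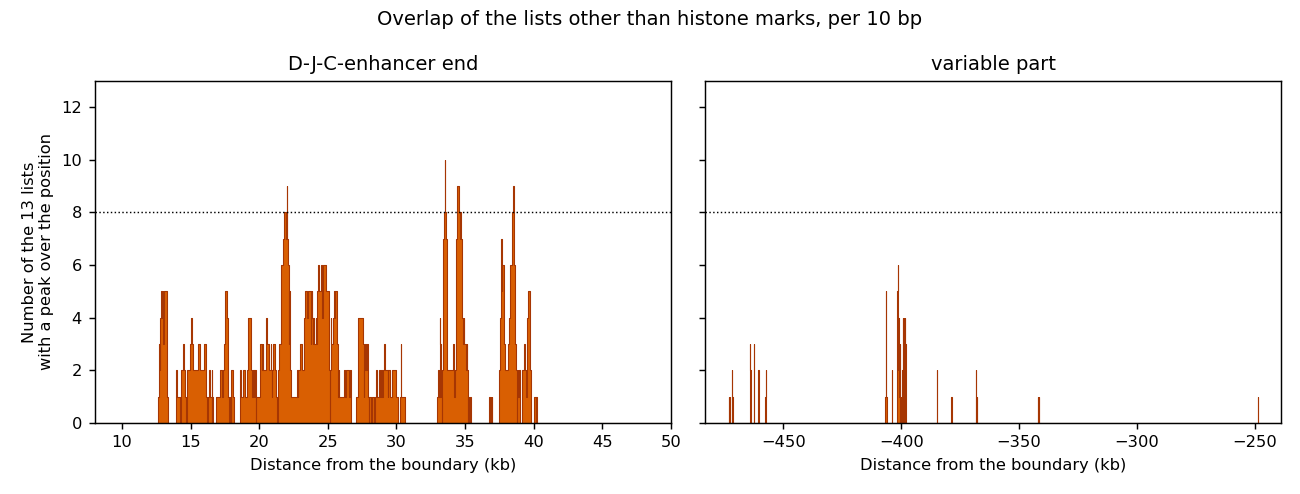
Number of the 13 lists other than histone marks that had a peak over each 10 bp, against the distance in kb from the boundary, in the D, J, constant and enhancer end (left) and in the stretch of the variable part that holds peaks of these lists (right). The dotted line marks 8 lists, which 6 stretches of the end reach, the highest with 10 lists, while the variable part reaches at most 6.

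Stacking of lists was counted per 10 bp. At least 1 of the 13 lists covered 40.9% of the end and 0.927% of the variable part, against 0.346% of all chromosomes. Of the covered bins, 73 in the end (3.57%) and 0 in the variable part lay under 8 or more lists, against 0.655% over all chromosomes. The most lists in a bin were 10 in the end, 6 in the variable part and 12 over all chromosomes. These bins made 6 stretches of the 769 in the genome, a limit of 8 lists that was set after seeing the data. The stretch with 10 lists was chr6:41503501-41503620, over the second ETS1 peak named above, and lacked Ser2P, Taf1 and TFIIA. The others were chr6:41491781-41491920, chr6:41492001-41492050, chr6:41504411-41504610, chr6:41504651-41504730 and chr6:41508421-41508560. Ser2P was in none of the 6, and Taf1 was in chr6:41491781-41491920 alone.

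**Figure D5:**
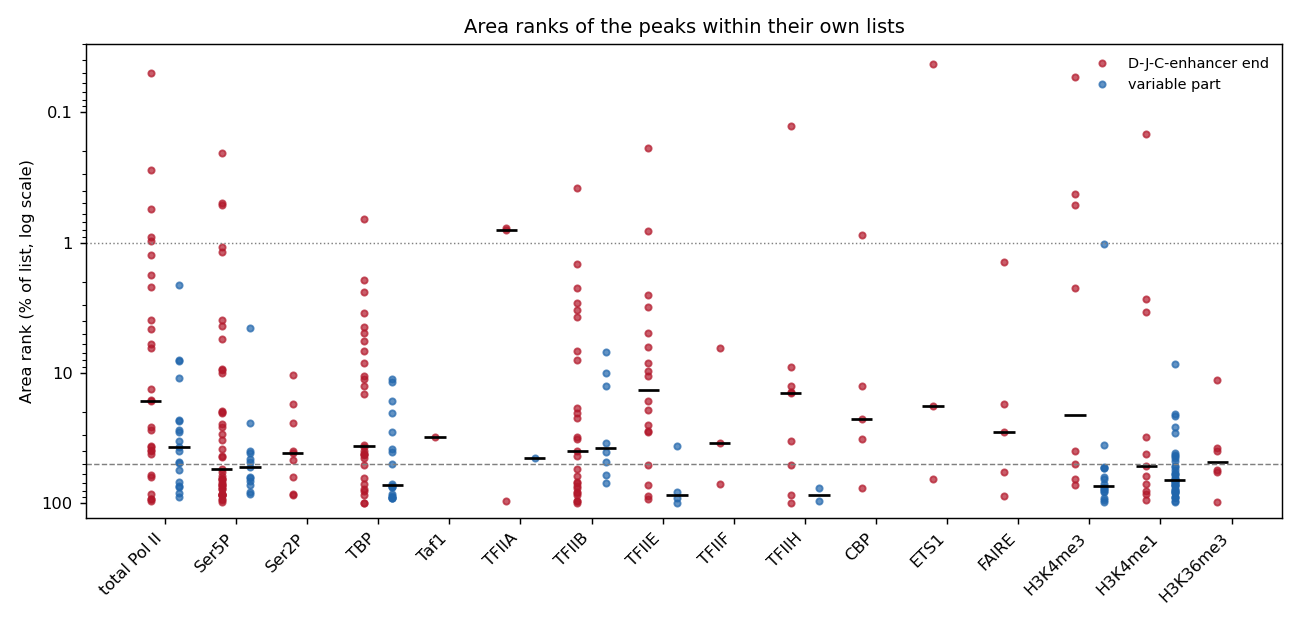
Area rank of every peak within its own list, in percent (log scale, strong peaks at the top), for the D, J, constant and enhancer end (red) and the variable part (blue), with bars for medians. The dotted line marks 1% and the dashed line 50%. The end has points above the dotted line in 11 lists, and the highest point of the variable part is an H3K4me3 peak at 1.02%.

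The median ranks of the 2 parts did not differ in one way for all lists. Total Pol II had a median rank of 16.3% in the end and 37.2% in the variable part, TBP 36.5% and 72.6%, TFIIE 13.5% and 86.2%, and H3K4me3 21.0% and 73.5%. For Ser5P the medians were 55.1% and 52.7%, and for TFIIB 39.7% and 37.5%. The peaks of the end thus ran from the strongest of their lists to the weakest, with Ser5P ranks between 0.207% and 97.8%. The counts of Ser5P and TFIIB in the end thus include many low-ranking peaks. With the upper 50% of each list alone, 0.00189% of tiles still reached the count of the end for Ser5P, and 0.00189% for TFIIB.

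In the variable part the peaks were clustered as well. The 65 peaks of the 13 lists other than histone marks lay from -473 to -249 kb relative to the boundary and made 15 islands with a median width of 240 bp, against 2940 bp for the 4 islands of the end. Of the 15, 2 held 5 or more lists and 3 held 1 list. The 100 kb from 41030001 to 41130000 held 49 of the 65 peaks, with 7 H3K4me3 and 22 H3K4me1 peaks, and the 100 kb before it held 15, with 8 and 6. The 200 kb from 41230001 to 41430000 held no peak of these lists or of the 2 H3K4 marks, and the 40 kb next to the boundary held 1 H3K4me1 peak. Most of the variable part was therefore empty of listed peaks, and the peaks of the 13 lists in it lay at -249 kb or farther from the boundary. The empty stretches were not matched to Trbv segments or to the other genes of the locus.

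The richest island of the variable part, chr6:41068341-41072020, was 3680 bp long and held 28 peaks of 7 lists. It included the strongest peaks of the variable part for total Pol II, at chr6:41068351-41069060 (rank 382 of 18037, 2.12%), for Ser5P, at chr6:41068441-41069200 (rank 485 of 10644, 4.56%), for TBP, at chr6:41068691-41069000 (11.1%), and for TFIIB, at chr6:41068711-41068960 (6.92%). TFIIA had its 1 peak of the variable part there, and both TFIIH peaks of the variable part lay there with ranks of 76.0% and 96.1%. H3K4me3 covered it with a 4560 bp peak, chr6:41067971-41072530, ranked 287 of 28013 (1.02%). Pol II, TBP, TFIIB and H3K4me3 were thus all in the upper part of their lists at this island, while CBP, ETS1, FAIRE, Taf1, TFIIF, Ser2P and H3K36me3 had no peak in it.

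The second richest island, chr6:41063001-41064070, held 8 peaks of total Pol II, Ser5P, TBP, TFIIB and TFIIE. Its strongest total Pol II peak ranked at 8.01%, and a TFIIB peak in it at 10.1%. The island nearest to the boundary, at -249 kb, was a single TBP peak of 50 bp ranked at 91.2%. The strongest H3K4me1 peak of the variable part, chr6:41011471-41013630, was 2160 bp long and ranked 6354 of 74607 (8.52%). Outside the island of 7 lists, then, 1 total Pol II and 1 H3K4me1 peak of the variable part were in the upper 10% of their lists.

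Where Pol II peaks were found, most overlapped H3K4me3 in both parts. Total Pol II peaks overlapped H3K4me3 in 28 of 28 cases in the end and 16 of 19 in the variable part, against 64.3% in the whole list. For Ser5P the counts were 42 of 43 and 12 of 13 (78.7%), and for TBP 28 of 28 and 15 of 18 (66.3%). For TFIIB they were 26 of 27 and 8 of 8 (69.7%). H3K4me3 peaks in turn overlapped H3K4me1 in 6 of 8 cases in the end and 13 of 16 in the variable part (85.4%), and H3K4me1 peaks overlapped H3K4me3 in 7 of 11 and 12 of 37 (35.7%). Total Pol II overlapped H3K4me1 in 14 of 28 and 13 of 19 cases (49.2%), less often in the end than H3K4me3. Both parts thus had most of their total Pol II, Ser5P, TBP and TFIIB peaks overlapping H3K4me3. In the end the H3K4me3 peaks covered 26340 bp within an extent of 28.7 kb that held all of these peaks. Overlap was therefore close to certain there, wherever a peak lay. Of the marks themselves, 7 of 8 H3K4me3 peaks in the end and 9 of 16 in the variable part overlapped total Pol II (30.8%), and for H3K4me1 the counts were 7 of 11 and 10 of 37 (9.56%). Of the bases under H3K4 marks, 4580 bp in the end and 16690 bp in the variable part had H3K4me1 without H3K4me3.

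Pairs of lists were also set side by side. TBP peaks overlapped total Pol II in 27 of 28 cases in the end and 14 of 18 in the variable part (60.9% in the whole list). They overlapped TFIIB in 15 of 28 and 8 of 18 (35.6%), and TFIIE in 15 of 28 and 3 of 18 (42.4%). Total Pol II peaks overlapped Ser5P in 21 of 28 and 10 of 19 (36.7%), and TBP in 13 of 28 and 11 of 19 (50.0%). Ser5P peaks overlapped total Pol II in 36 of 43 and 11 of 13 (69.1%), and TBP in 16 of 43 and 8 of 13 (58.9%). Most Ser5P peaks in the end thus overlapped total Pol II, and most did not overlap TBP. In the other direction, 24 of 28 TBP peaks in the end and 9 of 18 in the variable part overlapped Ser5P (40.2%). Of TFIIE, 17 of 18 peaks in the end and 3 of 4 in the variable part overlapped TBP (57.0%), and 13 of 18 and 2 of 4 overlapped TFIIB (37.9%). Of TFIIB, 19 of 27 and 7 of 8 overlapped TBP (53.0%). None of these differences was tested. In the end, total Pol II peaks covered 19240 bp within their extent of 27.2 kb, and Ser5P peaks 13120 bp within 27.6 kb. Overlap with these 2 lists was therefore much more likely there than over all chromosomes, wherever a peak lay.

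The edges of the locus and its boundary fell in empty stretches. The last peak of the variable part was an 850 bp H3K4me1 peak, chr6:41443881-41444730 (rank 52.9%), and the first of the end a 300 bp H3K4me1 peak, chr6:41479731-41480030 (79.9%). The first and last peaks of the locus were an H3K4me1 peak, chr6:40840721-40841180 (67.8%), and an H3K36me3 peak, chr6:41516841-41519090 (37.4%). The nearest peaks outside were H3K36me3 peaks at chr6:40431031-40434240 (12.4%) and chr6:41523951-41524700 (83.7%). No peak spanned an edge.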

How the data were processed

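Chromatin immunoprecipitation (ChIP-seq) of 15 targets and FAIRE were each given as 1 peak list with chromosome, start, end and area. The area was read as the authors' signal summed over the peak, per the deposited files' own names, and these signal tracks, FAIRE excepted, had been cleared of artefact regions, scaled and background-subtracted. Replicates had been merged for 13 lists, and CBP, Taf1 and TFIIB came from 1 replicate each, per the same names. The build was mm9, per the submitters' processing notes. No aligner, peak caller, threshold or read number was given in the sources used here, so the depth behind each list is unknown.

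The members of the locus and the lists were chosen with earlier results of these data known. A peak counted as a member if it lay wholly inside the locus, and overlap meant at least 1 bp. Ranks were taken within a list by area, and 50 kb tiles of 21 chromosomes, ending at each chromosome's last peak, gave the background. Islands joined the peaks of 13 lists across gaps of at most 500 bp. Regions named in the text were the strongest peak of each list in each part, islands, gaps between marks and edges. Stretches under 8 or more lists were added after seeing the data. Since each target had 1 list, no replicate spread could be had and no p-value is given. Shares carry Wilson 95% intervals. Alternatives covered the boundary, the upper 50% of each list by area, list length, the overlap rule and covered bases. They also covered lists of 1 replicate, tiles, rank measures and island gaps. Python 3.11.15, numpy 2.4.6, scipy 1.17.1 and matplotlib 3.10.9 were used, and 10 of 10 checks on simulated peaks returned the values built in. An mm9 genome or annotation was not used here, so no sequence is printed and peaks were not assigned to gene segments.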

Additional observations from a re-analysis of the deposited data

How the results depend on the processing

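Of 69 recomputed values, 57 stayed within their interval or within 1.5 times and 12 moved. Many of the 57 had little or no room to move, so the tally is not a measure of robustness. No peak spanned an edge, few peaks lay near the boundary, and some settings left the lists of a class unchanged. With every factor and FAIRE list cut to the length of the shortest, the share in the D, J, constant and enhancer end was 93.8% for Pol II and 94.6% for TBP and general factors. By covered bases the shares were 83.9% and 82.5%, with 62.7% for H3K4me3 and 42.0% for H3K4me1. With the upper 50% of each list, the H3K4me3 share was 71.4%. For H3K4me3 both changes turned round which part held more, since by peak number the end held 33.3%. Peaks of the end in the upper 1% of their list numbered 7 by area per base, and 47 in the upper 5%, against 3 in the variable part. With no gap allowed, islands numbered 31 in the end and 27 in the variable part. No paired analysis was possible because each target had 1 list. Read depth and the authors' threshold are unknown, so an empty stretch means only that no peak was listed there.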
